A study of Mus musculus with 4 samples.

Results

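Small pre-B cells of the bone marrow were chosen by their own measured values in single-cell libraries, the UMIs (unique molecular identifiers, each standing for 1 captured mRNA molecule) of a few marker genes. Cells were kept if 500 to 4000 genes were detected in them and mitochondrial UMIs did not exceed 15%, and a kept cell was a member when it had at least 2 UMIs of Vpreb3 and Rag1 together, at least 2 of Cd79a and Cd79b together, at most 2 of Vpreb1, Igll1 and Dntt together, 0 of Ighd and Fcer2a, 0 of Mki67 and Top2a, and under 10% of its UMIs in S100a8 and S100a9. Of 36942 barcodes 31457 passed the cell filter, and 931 of these were members. Members numbered 399 of 7560 cells in TKO, 304 of 7476 in IL6 KO, 16 of 9627 in DKO and 212 of 6794 in TWT.

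The study asked what loss of IL-6 does in aged mice that lack mDia1, an actin-nucleating formin encoded by Diaph1, and the microRNA miR-146a. TKO mice were IL6-/-, mDia1-/- and miR146a-/-. IL6 KO mice were IL6-/- with both other loci +/+. DKO mice were mDia1-/- and miR146a-/- with IL6+/+, and TWT mice were +/+ at all 3 loci. All were C57/B6 mice aged 12 months with constitutive knockouts, so every cell of the animal carried the deletion and a difference in B cells need not arise in B cells. Red-cell-depleted marrow of femur and tibia gave 1 library per genotype, and the number of mice behind each is not stated in the labels or the methods. Genotype, mouse and library therefore cannot be told apart, nor can sex in comparisons with IL6 KO, the one female library by its transcripts, so no test between genotypes was possible, and every 95% interval (exact) covers counting error only.

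B cells arise in the marrow in steps. Pro-B cells join the segments of the immunoglobulin heavy chain gene with the recombinase made by Rag1 and Rag2, and large pre-B cells display that chain with the surrogate light chain (Vpreb1, Igll1) as the pre-B receptor and divide. Small pre-B cells stop dividing, lose the surrogate light chain, make the recombinase again and rearrange the kappa and lambda light chain genes, while Bach2, a transcriptional repressor, Ebf1, which fixes B lineage identity, and Cd79a, a signalling chain of the B cell receptor, are on. Immature and mature B cells then carry a complete receptor and switch on Ms4a1 (CD20), MHC class II and Ighd.

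The 250 bases before and 50 bases after the annotated start of the genes that pick the members are shown because those genes are on together in this stage (RefSeq, GRCm38.p6, 5′ to 3′ on the gene's strand). Capitals mark CAGGTG, or CACCTG on the other strand, the E-box read by E2A proteins, the products of Tcf3. The lines give Vpreb3 (chr10:75948050-75948349, plus strand), Rag1 (chr2:101649483-101649782, minus strand) and Cd79a (chr7:24897247-24897546, plus strand).
Vpreb3: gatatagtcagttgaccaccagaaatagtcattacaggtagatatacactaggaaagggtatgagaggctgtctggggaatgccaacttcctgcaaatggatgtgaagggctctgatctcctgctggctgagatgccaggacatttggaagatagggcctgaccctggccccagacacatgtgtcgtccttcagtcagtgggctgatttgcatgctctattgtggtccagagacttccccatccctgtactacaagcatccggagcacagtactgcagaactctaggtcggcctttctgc
Rag1: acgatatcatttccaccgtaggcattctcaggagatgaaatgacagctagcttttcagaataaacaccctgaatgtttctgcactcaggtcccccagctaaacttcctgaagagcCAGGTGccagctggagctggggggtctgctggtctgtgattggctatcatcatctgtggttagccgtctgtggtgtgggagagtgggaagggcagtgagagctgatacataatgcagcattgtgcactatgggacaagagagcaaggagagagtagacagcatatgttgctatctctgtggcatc
Cd79a: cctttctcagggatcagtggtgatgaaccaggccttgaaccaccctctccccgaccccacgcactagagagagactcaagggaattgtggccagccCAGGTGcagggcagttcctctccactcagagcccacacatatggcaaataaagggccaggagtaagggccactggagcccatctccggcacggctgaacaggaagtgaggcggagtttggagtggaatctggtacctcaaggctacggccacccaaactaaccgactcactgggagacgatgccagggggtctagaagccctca
Rag1 and Cd79a each held 1 match and Vpreb3 held 0, and 6640 of 32851 promoters of the same length in the reference (20.2%) held at least 1. A match describes letters only. The mature miR-146a-5p lost in TKO and DKO mice lies at chr11:43374435-43374456 on the minus strand and is shown with its seed, bases 2 to 8, in capitals, because genes it is known to repress are described below.
miR-146a-5p: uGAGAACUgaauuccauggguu

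The libraries held between 61292684 and 85145074 UMIs over 8423 to 10866 barcodes, with a median of 4363 to 6596.5 UMIs per barcode. Pairs of libraries shared 19 to 36 barcode sequences, and no member's barcode was shared. Diaph1 had 846 UMIs in TKO and 973 in DKO, against 10924 in IL6 KO and 10500 in TWT. Il6 tags did not follow the labels, with 587 UMIs in TKO and 606 in IL6 KO, against 20 in DKO and 52 in TWT. These are 3′ tags and the sources used here do not say which part of Il6 was deleted, so they check nothing about the protein. Among members Il6 had 0 UMIs in TKO, 3 in IL6 KO, 0 in DKO and 0 in TWT. Xist had 49030 UMIs in IL6 KO and at most 7 in each of the others, and Ddx3y, a Y-linked gene, had 0 UMIs in IL6 KO and at least 2729 in each of the others.

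The members were not all of one kind. In 69 of the 931, between 34.7% and 77.9% of UMIs came from immunoglobulin constant genes and Jchain, whereas the other 862 had at most 6.65% there. A limit of 15%, set after the values were seen, separates them. These immunoglobulin-rich members numbered 14 in TKO, 31 in IL6 KO, 2 in DKO and 22 in TWT. They had a median of 20008 to 33284 UMIs per cell by library, against 2420.5 to 2711 in the others, and so supplied 25.1% of all member UMIs in TKO, 47.4% in IL6 KO, 58.8% in DKO and 50.4% in TWT. Jchain, which links secreted antibody, had a median per cell of 1902 UMIs in TKO, 1042 in IL6 KO, 1108.5 in DKO and 835.5 in TWT, and 0 in the other members of each library. Xbp1, the regulator of antibody secretion, had a median of 23 to 31 UMIs in them and 0 in the others. Over the 69 cells Rag1 totalled 1 UMI and Pax5, which represses the plasma cell programme, totalled 2. Their values go against the name small pre-B, and genes are compared below without them unless stated.

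**Figure D1:**
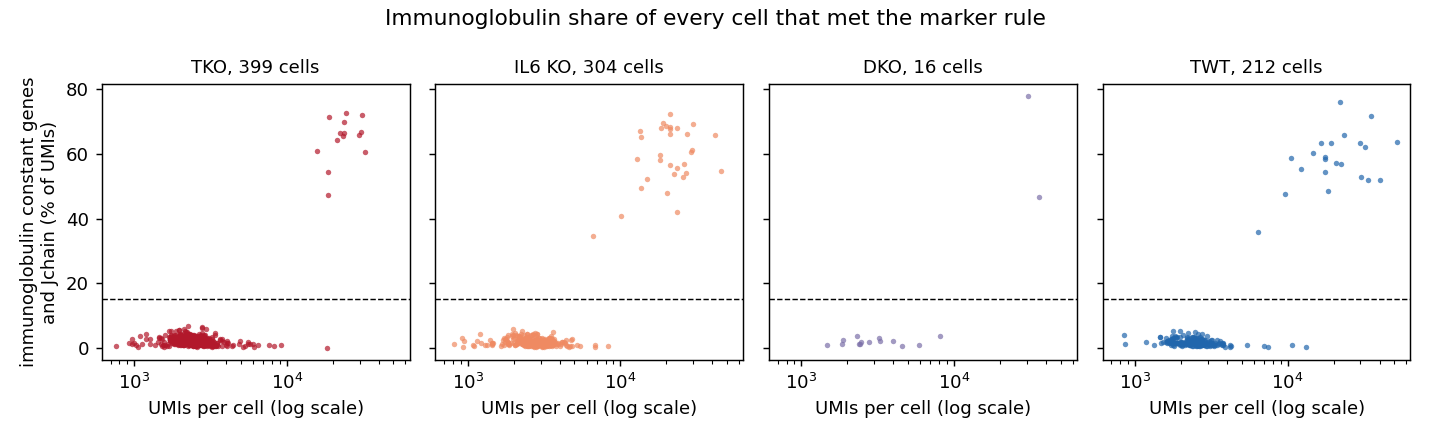
Share of each member's UMIs in immunoglobulin constant genes and Jchain (percent, vertical axis) against its total UMIs (log axis), by library, with the 15% limit as a line. No cell lies between 6.65% and 34.7%, and the 69 cells above the limit sit to the right of most others, at 6428 UMIs or more.

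In TKO, IL6 KO and TWT the remaining 848 cells carried the markers named for the stage in their summed counts, but not in each cell. At least 1 Rag1 UMI was found in 191 of 385 cells in TKO, 159 of 273 in IL6 KO and 105 of 190 in TWT. Bach2 was found in 310, 226 and 163 of these cells. Levels are UMIs summed over the cells of a library, scaled to the total UMIs of those cells (CPM, counts per 1000000). Vpreb3, which binds newly made heavy chain in pre-B cells, was at 4605 CPM in members and 183 in the rest of the cells of TKO, at 4756 and 203 in IL6 KO, and at 4030 and 91.2 in TWT. Rag1 was at 482 CPM in TKO, 693 in IL6 KO and 540 in TWT, and Bach2 was at 909, 1087 and 1190 CPM in the same order. Vpreb3 and Rag1 were used to choose the cells, so their levels describe the choice, but Bach2 and Ebf1 were not. Ebf1 was at 4093 CPM in TKO, 3892 in IL6 KO and 3953 in TWT, against 138 to 196 CPM in the rest of the cells. The median cell held 11 Vpreb3 UMIs in TKO, 12 in IL6 KO and 9 in TWT.

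The 14 such cells left in DKO did not carry all of these markers in their summed counts. They had 0 UMIs of Rag1, Rag2, Il7r, Il2ra and Cd93, 1 UMI of Bach2, and 2 to 5 UMIs of Vpreb3 each. With 46677 UMIs over the 14 cells, a count of 0 allows up to 3 counts. The 0 of Rag2 therefore says little, since Rag2 was at only 54.9 CPM in TKO, 63.6 in IL6 KO and 65.0 in TWT members. Ms4a1 was found in 12 of the 14. Cd74, the invariant chain of MHC class II, was at 18039 CPM, against 3130 in TKO, 2353 in IL6 KO and 2203 in TWT small pre-B cells and 14752 in DKO mature B cells. The label is therefore not borne out in DKO, and only the number of its cells is used. Members with Ms4a1 and no Rag1 in TKO, IL6 KO and TWT, described below, also had raised Cd74 (7280, 7384 and 5596 CPM). Their Bach2, at 517, 285 and 434 CPM, was above the 21.4 CPM of the 14 DKO cells. It was nevertheless far below members with Rag1 and no Ms4a1 (1275, 1390 and 1496 CPM). Mature B cells of the same libraries, at 232, 274 and 327 CPM, were nearer. The label is less secure for them than for members with Rag1.

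Small pre-B cells were most frequent in TKO. By the rule they were 5.28% of cells in TKO (95% interval 4.78 to 5.81), 4.07% in IL6 KO (3.63 to 4.54), 0.166% in DKO (0.0950 to 0.270) and 3.12% in TWT (2.72 to 3.56). The ratio of shares was 1.69 for TKO over TWT (1.43 to 2.01), 1.30 for IL6 KO over TWT (1.09 to 1.56), 1.30 for TKO over IL6 KO (1.12 to 1.51) and 0.0533 for DKO over TWT (0.0299 to 0.0885). Without the immunoglobulin-rich cells the shares were 5.09% in TKO, 3.65% in IL6 KO, 0.145% in DKO and 2.80% in TWT, and the TKO over TWT ratio was 1.82 (1.53 to 2.18). The DKO values count cells that met the rule but lacked Rag1 and other markers of the stage. A share of all cells also moves with every other cell type in the library. Among B lineage cells, those with at least 2 UMIs of Cd79a and Cd79b, members made up 25.4% in TKO, 22.8% in IL6 KO, 2.39% in DKO and 16.8% in TWT. Counted so, the ratio of TKO over IL6 KO was 1.11 (0.958 to 1.30), an interval that includes 1, and without the immunoglobulin-rich cells it was 1.20 (1.02 to 1.40). With at least 1 Rag1 UMI also required, the ratio of shares of all cells was 1.63 (1.28 to 2.09) for TKO over TWT, 1.38 (1.07 to 1.78) for IL6 KO over TWT, 1.19 (0.957 to 1.48) for TKO over IL6 KO and 0 (0 to 0.0252) for DKO over TWT.

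Pro-B and large pre-B cells stood above TWT in the same 2 libraries, and mature B cells with little Vpreb3 and Rag1 stood below. Cells between small pre-B and these mature B cells were counted in no stage. Those that met the rule but for 1 UMI of Ighd and Fcer2a numbered 143 in TKO, 119 in IL6 KO and 73 in TWT. Pro-B and large pre-B cells (at least 3 UMIs of Vpreb1, Igll1 and Dntt) numbered 80 in TKO, 86 in IL6 KO, 1 in DKO and 39 in TWT, ratios of shares to TWT of 1.84 (1.24 to 2.78) for TKO and 2.004 (1.36 to 3.01) for IL6 KO. Mature B cells (at least 1 UMI of Ighd and Fcer2a and at most 1 of Vpreb3 and Rag1) numbered 429 in TKO, 323 in IL6 KO, 283 in DKO and 546 in TWT. Their ratios to TWT were 0.706 (0.621 to 0.803) for TKO, 0.538 (0.467 to 0.618) for IL6 KO and 0.366 (0.316 to 0.423) for DKO. For every mature B cell so defined there were thus 0.897 small pre-B cells in TKO, 0.845 in IL6 KO and 0.348 in TWT. For every pro-B or large pre-B cell there were 4.81 in TKO, 3.17 in IL6 KO and 4.87 in TWT. In DKO the ratio to TWT was 0.0181 (0.000447 to 0.107) for pro-B and large pre-B cells and 0.0520 (0.0279 to 0.0894) for the cells that met the small pre-B rule.

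**Figure D2:**
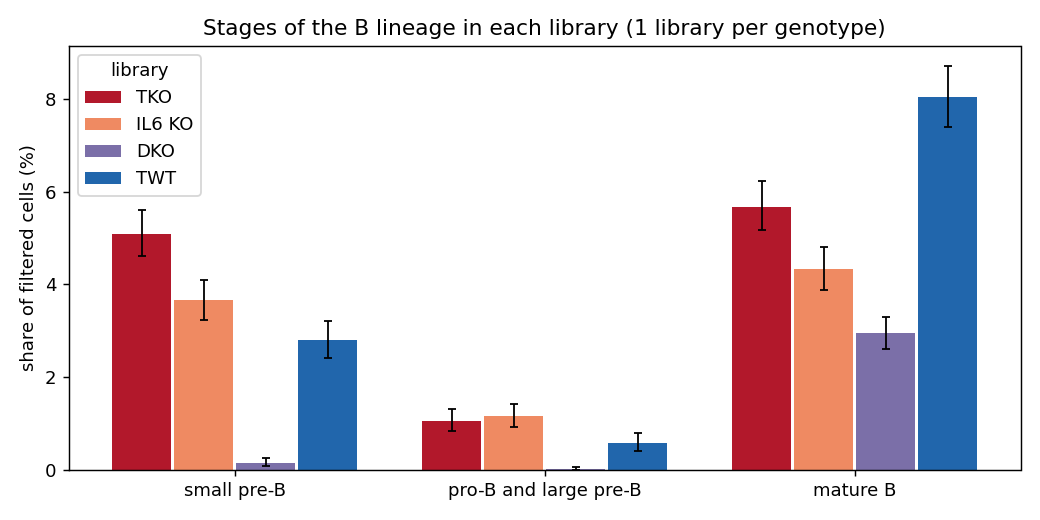
Share of filtered cells (percent) in each B lineage stage, by library as bars, with exact 95% intervals for counting error. Cells that met the small pre-B rule, without the immunoglobulin-rich ones, run from 5.09% in TKO to 0.145% in DKO, where they had 0 UMIs of Rag1. Mature B cells are at 2.94% in DKO, against 8.04% in TWT.

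The limits of the rule cut through a continuum at 2 of its thresholds. Cells that met everything else but had 1 UMI of Ighd and Fcer2a numbered 143 in TKO, 119 in IL6 KO, 21 in DKO and 73 in TWT, and they averaged 1.07 Rag1 UMIs in TKO, 1.10 in IL6 KO and 0.753 in TWT, against 1.21, 1.72 and 1.26 in members. Cells with any UMI of Mki67 or Top2a numbered 95 in TKO, 112 in IL6 KO, 1 in DKO and 37 in TWT. Members at exactly 2 UMIs of Vpreb3 and Rag1 numbered 8 in TKO, 15 in IL6 KO, 3 in DKO and 15 in TWT, and 8, 23, 16 and 21 cells stood just outside with 1 UMI.

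Set between its neighbours, the stage differed in genes that the rule does not name, some of them closely tied to genes it does name. Since the cells were sorted by their own UMIs, these levels are a description with no test. Il2ra, the CD25 chain of the IL-2 receptor that marks small pre-B cells in mouse marrow, was at 147 CPM in TKO, 131 in IL6 KO and 148 in TWT small pre-B cells. It was at 6.75, 22.5 and 8.39 CPM in pro-B and large pre-B cells and at 3.59, 1.09 and 2.05 CPM in mature B cells of the same libraries. Bach2 was also at its highest here, since pro-B and large pre-B cells had 275 CPM in TKO, 387 in IL6 KO and 352 in TWT and mature B cells had 232, 274 and 327. Il7r, the receptor for the cytokine that B cell precursors need, separated members (302 CPM in TKO, 415 in IL6 KO and 294 in TWT) from mature B cells (2.70, 6.52 and 5.47) but not from pro-B and large pre-B cells (385, 326 and 218).

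Among the genes most raised over mature B cells in all 3 libraries, Uchl1, a ubiquitin hydrolase, led with log2 ratios of 6.70 in TKO, 7.09 in IL6 KO and 7.05 in TWT. Gfra1, Il7r, Nuak1, Cd93, Myl4, Il2ra, Atp1b1, Rag2 and Myb, the transcription factor of progenitors, followed. Cr2, the complement receptor of mature B cells, lay at the other end with log2 ratios of -5.52 in TKO, -4.13 in IL6 KO and -4.98 in TWT, beside Ccr6, Gpr174, Icosl and the MHC class II genes H2-Eb1, H2-Aa and H2-Ab1. H2-Aa was at 190 CPM in TKO, 288 in IL6 KO and 276 in TWT members, against 4139, 3403 and 4185 CPM in mature B cells.

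Against pro-B and large pre-B cells the lambda genes Iglc2 and Iglc1, Ms4a1, Fcmr (the receptor for IgM), Cd2, Col5a3, Btla, Rasgrp1 and Polm, a polymerase of end joining, were among those raised most. Ms4a1 was at 1117 CPM in TKO, 741 in IL6 KO and 571 in TWT small pre-B cells, against 6.75, 0 and 4.195 CPM in pro-B and large pre-B cells. Vpreb2 and Arpp21 had 0 UMIs in members of the 3 libraries, and the dividing-cell genes Pclaf, Ncapg, Ccna2, Nusap1, Birc5 and Tpx2 had between 0 and 10.2 CPM. The low Vpreb2 and dividing-cell genes go with the choice of cells. Members had 0 UMIs of Mki67 and Top2a and few of Vpreb1, Igll1 and Dntt, while pro-B and large pre-B cells had no limit on Mki67 and Top2a.

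**Figure D3:**
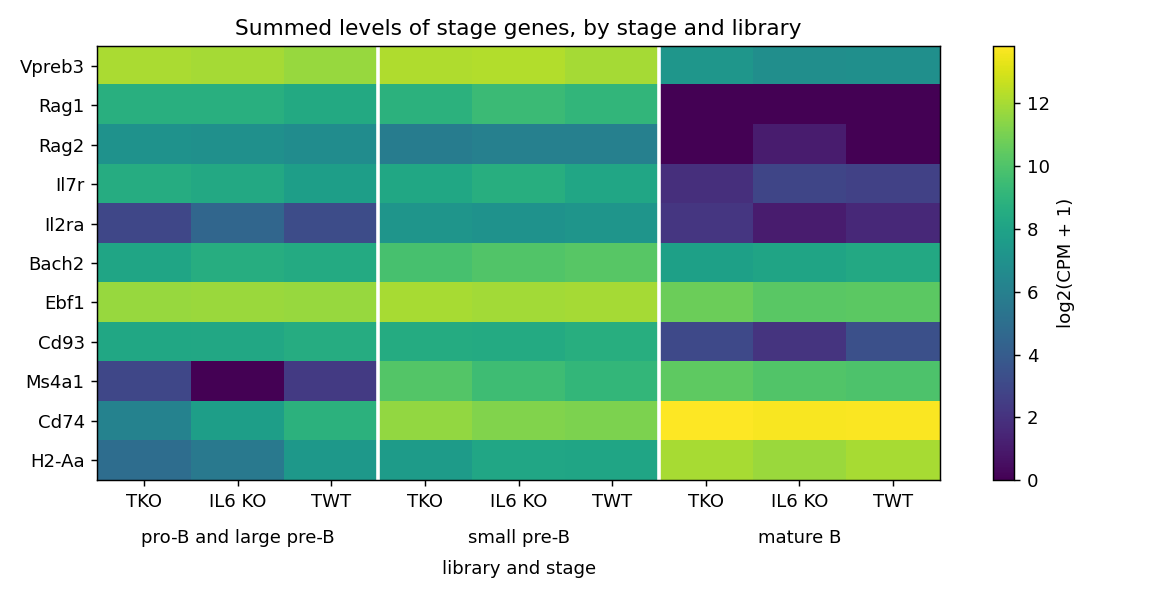
Summed level of stage genes, as log2(CPM + 1) in colour, in pro-B and large pre-B, small pre-B and mature B cells of TKO, IL6 KO and TWT. Il2ra and Bach2 are brightest in the middle block, Rag1 and Il7r are bright in the first and middle blocks, and Cd74 and H2-Aa are brightest in the last, in all 3 libraries.

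The 3 libraries were then compared gene by gene within small pre-B cells. Genes counted as measured if one of the 2 libraries reached 50 CPM and their UMIs came to 30 or more, and a measured gene was called if its CPM, with a pseudocount of 1 CPM added, differed at least 2-fold. Log2 ratios carry the same pseudocount, and ratios of counts have exact conditional intervals. Of 3450 genes measured between TKO and TWT, 28 were called higher (0.812%) and 20 lower (0.58%). Between IL6 KO and TWT 25 of 3484 were called higher (0.718%) and 42 lower (1.21%), and between TKO and IL6 KO 30 of 3387 were called higher (0.886%) and 15 lower (0.443%). The 3 comparisons share libraries. The interval of each called gene left out 1, but it covers counting error only and takes no account of many UMIs from 1 cell. Of measured genes 82.6% lay within 0.5 on the log2 scale between TKO and TWT, 84.3% between IL6 KO and TWT and 87.0% between TKO and IL6 KO.

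With the immunoglobulin-rich cells kept, the numbers shifted. TKO over TWT then gave 81 of 2733 higher (2.96%) and 48 lower (1.76%), with a median log2 ratio over all measured genes of 0.33, against -0.03 without those cells. IL6 KO over TWT gave 15 of 2416 higher (0.621%) and 28 lower (1.16%), and TKO over IL6 KO gave 52 of 2726 higher (1.91%) and 25 lower (0.917%).

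The genes of the stage were called about as seldom as other genes. The 10 lists of genes with a role in this stage held 166 genes, of which 103 were measured between TKO and TWT, 102 between IL6 KO and TWT and 102 between TKO and IL6 KO. Called were 1 gene higher in TKO than in TWT, 0 in IL6 KO against TWT and 1 gene higher in TKO than in IL6 KO, in both cases Cd40, and 0 were called lower. These are 0.971%, 0% and 0.98% of the role genes measured, beside 1.39%, 1.92% and 1.33% of all genes measured in the same comparisons. The median log2 ratio of the role genes was -0.01, -0.01 and 0.06 in these comparisons, beside -0.03, -0.02 and -0.02 over all measured genes. A difference under 2-fold is not shown to be absent by this.

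Of the receptor genes, Ighm, the heavy chain of IgM, was at 7984 CPM in TKO, 6728 in IL6 KO and 7626 in TWT. Its partners Cd79a and Cd79b, part of the choice of cells, were at 4283 and 3269 CPM in TKO, 3052 and 2779 in IL6 KO, and 3186 and 2769 in TWT. Of the recombination genes, 7 of 15 were measured and 0 called. Rag2 was at 54.9 CPM in TKO, 63.6 in IL6 KO and 65.0 in TWT. Xrcc6, the Ku70 subunit that holds broken ends, was at 254, 321 and 284 CPM, and Lig4, the ligase that seals them, at 78.8, 61.0 and 87.3. Genes of both cutting and joining were thus among the 7 measured, while others, such as Xrcc5 (Ku80) at 7.98, 15.9 and 2.03 CPM, were too low to be called.

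Transcription factors of the lineage gave 19 of 25 measured and 0 called. Ebf1 stood within 1.04-fold between TKO and TWT (0.981 to 1.09). Pax5, which commits cells to the B lineage, was at 825 CPM in TKO, 763 in IL6 KO and 1068 in TWT, and Bach2 had a TKO over TWT ratio of 0.764 (0.688 to 0.849). Irf4, which promotes light chain rearrangement, was at 149 CPM in TKO, 213 in IL6 KO and 211 in TWT. Sox4, needed for survival of early B cells, was at 648 CPM in TKO, 926 in IL6 KO and 621 in TWT. The intervals for Pax5 (0.692 to 0.864), Bach2 and Irf4 (0.544 to 0.913) leave out 1 in TKO over TWT, yet the differences were under 2-fold.

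Signalling genes of the receptor gave 16 of 20 measured and 0 called. The kinase Syk was at 713 CPM in TKO, 836 in IL6 KO and 808 in TWT, and the adaptor Blnk at 435, 416 and 516. Of those measured, 2 inhibitory members had the widest ratios of TKO over TWT. Cd22, a receptor that dampens signalling, was at 118 CPM in TKO, 94.1 in IL6 KO and 69.0 in TWT (TKO over TWT 1.71, 1.16 to 2.58), and Ptpn6, the phosphatase SHP-1, at 340, 280 and 231 (1.47, 1.19 to 1.83). Of the cytokine and chemokine receptors, with 9 of 14 measured and 0 called, Cxcr4, which holds precursors in the marrow, was at 266 CPM in TKO, 378 in IL6 KO and 311 in TWT. Tnfrsf13c, the BAFF receptor of later B cells, was at 366, 200 and 284 CPM.

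Surface proteins held the only call. Cd40, the receptor for T cell help (chr2:165055627-165072948, plus strand, GRCm38), had 55 UMIs in 385 TKO cells, 15 in 273 IL6 KO cells and 12 in 190 TWT cells, or 54.9, 19.9 and 24.4 CPM. The ratio was 2.25 for TKO over TWT (1.19 to 4.62) and 2.76 for TKO over IL6 KO (1.54 to 5.26), on few counts. The first call was lost with a pseudocount of 10 CPM (log2 ratio 0.92). Both were lost after thinning each cell to 1000 UMIs (0.89 and 1.13), the second because too few UMIs were left to count as measured, though still above 2-fold. In mature B cells Cd40 was at 68.3 CPM in TKO, 72.8 in IL6 KO and 66.3 in TWT, less than 2-fold apart. Among members with Ms4a1 and no Rag1, described below, it was at 84.0, 54.0 and 60.9 CPM in the same order. Members with Rag1 and no Ms4a1 had 34.1, 4.90 and 13.3 CPM. Both sets hold only parts of the 55, 15 and 12 UMIs above, so their values rest on very few counts. Ms4a1 came close to a call, with a TKO over TWT ratio of 1.96 (1.72 to 2.24), and Fcmr was at 272 CPM in TKO, 152 in IL6 KO and 146 in TWT (1.86, 1.43 to 2.45). Ly6d, carried by committed B precursors, was at 4378, 2780 and 3043 CPM.

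The remaining role lists had 0 calls. Of 12 measured genes of cell cycle exit, Btg1 was at 2144 CPM in TKO, 2071 in IL6 KO and 1965 in TWT, and Cdkn1b, the inhibitor p27, at 175, 221 and 213. Residual S and G2/M genes gave 5 of 22 measured, of which Tubb5 was at 291, 310 and 294 CPM. Of 7 measured genes of survival, Mcl1, which keeps B cells alive, was at 497, 500 and 420 CPM, and Bcl2l1 (Bcl-xL), a survival factor of pre-B cells, at 83.8 CPM in TKO, 113 in IL6 KO and 126 in TWT. Bcl2 itself, scarce in pre-B cells, had 5.99 CPM in TKO, 15.9 in IL6 KO and 48.7 in TWT, below the limit for a call. These levels rest on 6 UMIs in 6 TKO cells, 12 in 7 IL6 KO cells and 24 in 5 TWT cells. T cells had 594, 701 and 553 CPM.

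**Figure D4:**
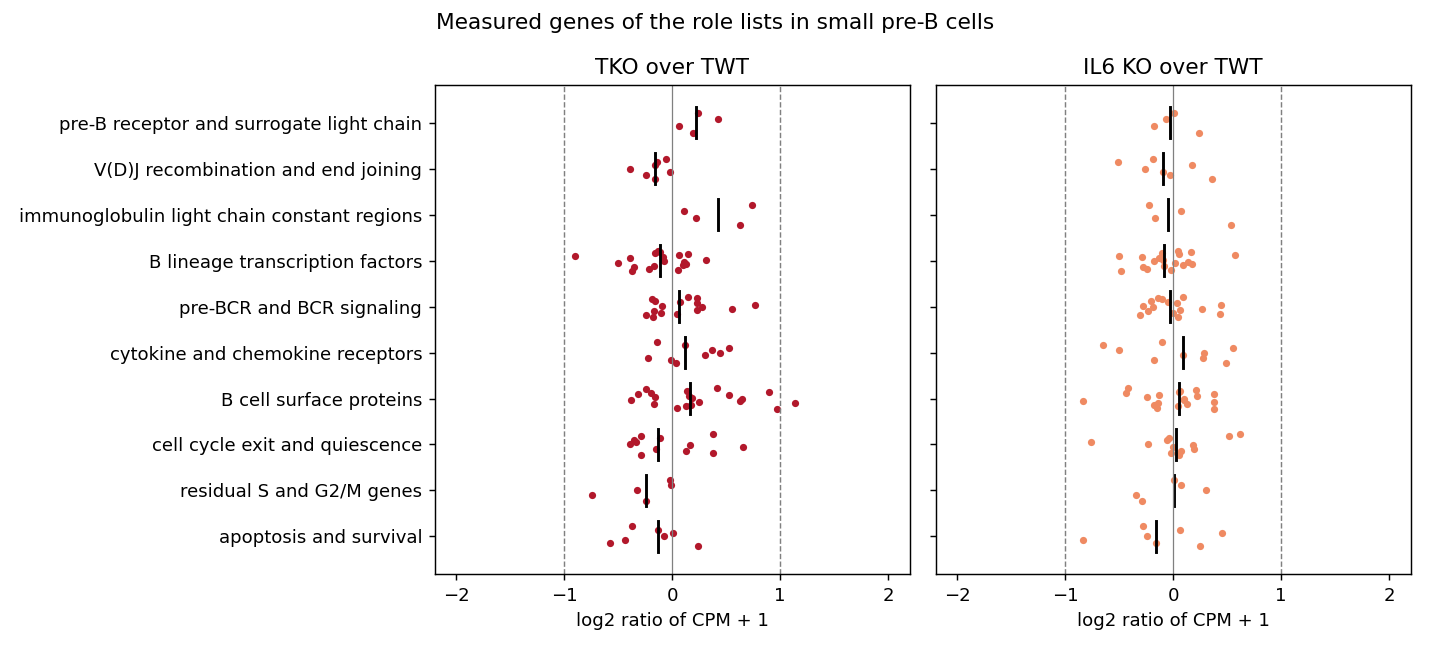
Log2 ratio of each measured gene of the role lists in small pre-B cells without the immunoglobulin-rich ones, for TKO over TWT (left) and IL6 KO over TWT (right), with each list's median as a black bar and dashed lines at a 2-fold difference. Cd40 in TKO over TWT, at 1.14, is the only point beyond the lines.

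Few members of the pathway lists were called. Besides pathways tied to the deleted genes, the lists cover interferon, MHC, oxidative phosphorylation, mitochondrially encoded, and dissociation stress and immediate early genes. The 9 pathway lists held 194 genes, and 124 were measured between TKO and TWT, with 1 called higher, Ifi27l2a, and 2 called lower, Diaph1 and Egr1. Egr1 belongs to the list of dissociation stress and immediate early genes. IL6 KO against TWT gave 1 higher, Stat2, and 1 lower, Egr1, of 126, and TKO against IL6 KO gave Ifi27l2a higher and Diaph1 lower of 124. The shares called were 2.42%, 1.59% and 1.61%, beside 1.39%, 1.92% and 1.33% of all genes measured. Stat2, a factor of interferon signalling, had 48 UMIs in TKO, 38 in IL6 KO and 12 in TWT, and Egr1, an immediate early factor, had 21, 20 and 29. Both calls of IL6 KO against TWT were lost with a pseudocount of 10 CPM (log2 ratios 0.81 and -0.92). Diaph1 had 8 UMIs in TKO, 66 in IL6 KO and 68 in TWT, or 7.98, 87.5 and 138 CPM, and was thus lower in the library whose label says so. The other 19 measured actin genes between TKO and TWT lay between -0.30 and 0.47 on the log2 scale and none was called, among them Rhoa at 495 CPM in TKO, 453 in IL6 KO and 357 in TWT.

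Of the known targets of miR-146a and the pathway they serve, 0 measured genes were called, but the targets lay near the 50 CPM limit. Traf6, an adaptor of Toll-like receptor signalling, was at 35.9 CPM in TKO, 61.0 in IL6 KO and 40.6 in TWT, and the kinase Irak1 at 45.9, 39.8 and 54.8, so Traf6 could not be called in TKO over TWT nor Irak1 in TKO over IL6 KO. Nfkb1, the p50 subunit of NF-κB, was at 162, 150 and 234 CPM. Of the receptor and transducers of IL-6, the receptor chain Il6ra was at 20.0, 14.6 and 16.2 CPM, too low to be measured. Stat3, the factor IL-6 acts through, was at 70.8 CPM in TKO, 114 in IL6 KO and 126 in TWT, with a TKO over TWT ratio of 0.563 (0.395 to 0.804).

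Ifi27l2a, an interferon-induced gene (chr12:103442167-103443680, minus strand, GRCm38), was the one pathway gene called higher in TKO against both other libraries. It had 450 UMIs in 165 TKO cells, 126 UMIs in 75 IL6 KO cells and 90 UMIs in 44 TWT cells, at 449, 167 and 183 CPM, and the ratio was 2.46 for TKO over TWT (1.96 to 3.12). After each cell was thinned to 1000 UMIs, 26.3% of TKO members, 12.6% of IL6 KO and 13.8% of TWT members held a UMI. T cells, which serve here as a background for B lineage genes but express this one, had 15.2%, 6.65% and 9.76%. Its level was 185 CPM in TKO, 93.3 in IL6 KO and 58.7 in TWT pro-B and large pre-B cells, and 311, 210 and 176 CPM in mature B cells, so the TKO value was the highest of the 3 in each stage and in T cells (202, 67.5 and 109 CPM). Other interferon genes in the list were not called in TKO over TWT, such as Ly6e at 1437 CPM in TKO, 1207 in IL6 KO and 1196 in TWT.

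MHC genes gave 0 calls in any of the 3 comparisons. Cd74 was at 3130 CPM in TKO, 2353 in IL6 KO and 2203 in TWT, whereas H2-Aa was at 190, 288 and 276 CPM. Of MHC class I, H2-K1 was at 1666, 1271 and 1238 CPM. The mitochondrially encoded genes, with 12 measured, had a median log2 ratio of -0.26 in TKO over TWT and -0.13 in IL6 KO over TWT, each of the 12 below 0, with mt-Nd3 at 859, 1227 and 1310 CPM. Median mitochondrial shares per cell were 5.76% in TKO, 6.17% in IL6 KO and 6.53% in TWT.

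Outside the lists, the largest calls in TKO over TWT were of mixed kind. Reln, a secreted matrix protein, had 5 UMIs in TKO, 10 in IL6 KO and 39 in TWT, or 4.99, 13.3 and 79.2 CPM. Yipf3, a Golgi protein, had 17 UMIs in TKO, 51 in IL6 KO and 42 in TWT, and was called lower in TKO against IL6 KO as well as against TWT. C2cd3, a centriole protein, had 56 UMIs in TKO, 47 in IL6 KO and 9 in TWT. Pttg1, securin, had 57.9 CPM in TKO, 31.8 in IL6 KO and 22.3 in TWT, and Psen2, a subunit of gamma-secretase, 69.8, 43.7 and 28.4 CPM.

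Further calls were of genes of other cells and of sex. Ifitm1, Mmp9, Elane and Ccl6 were called higher in TKO than in TWT, with 60, 52, 389 and 63 UMIs in TKO, but 89.7% of those of Elane, a neutrophil protease gene, lay in 1 cell. Without cells marked as doublets the log2 ratio was -0.20 for Ifitm1, 0.09 for Mmp9 and -0.82 for Ccl6. Ccl5, a T and NK cell chemokine called lower in TKO, had 1 UMI there, 11 in IL6 KO and 70 in TWT, of which 57.1% lay in 1 cell. Between IL6 KO and TWT, 79.1% of the TWT UMIs of Mpo, 97.2% of Ctsg and 87.2% of Prtn3 lay in 1 cell, and after thinning the log2 ratio of Ctsg was 3.99, against -2.68 before. Genes with over 50% of their UMIs in 1 cell of the higher library made up 1 of the 28 higher and 2 of the 20 lower calls in TKO over TWT, 0 of 25 and 10 of 42 in IL6 KO over TWT, and 4 of 30 and 0 of 15 in TKO over IL6 KO. Hemoglobin and other erythroid genes summed to 9881 CPM in TKO, 4906 in IL6 KO and 4694 in TWT, and 1 TKO cell held 1927 of the 5088 UMIs of Hbb-bs. The 12 neutrophil markers summed to 5401, 4686 and 3874 CPM, the 12 T and NK cell markers to 37.9, 14.6 and 134 CPM, with 6, 7 and 2 of them at 0, and the 12 monocyte and macrophage markers to 370, 224 and 443 CPM. The part of such cells or free RNA in the calls was not tested.

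Between IL6 KO and TWT the sex-linked genes had the steepest ratios. Xist had 1178 UMIs in IL6 KO and 0 in TWT, at least 256-fold higher against 3 counts. Eif2s3y had 0 UMIs in IL6 KO and 60 in TWT, at least 30.6-fold lower, and Ddx3y had 0 in IL6 KO and 51 in TWT, at least 26.05-fold lower. Other genes called higher in IL6 KO than in TWT included Carhsp1, Dpf2, Tnpo1, Zfp800 and Eaf2, with 40, 62, 81, 51 and 41 UMIs in IL6 KO and 6, 17, 23, 14 and 11 UMIs in TWT. Ms4a6c, a myeloid gene, was called lower with 5 UMIs in IL6 KO and 37 in TWT. Called lower in TKO than in IL6 KO were also Scap, Retnlg, Cpt1a and Selenop, with 22, 91, 20 and 56 UMIs in TKO and 45, 182, 39 and 100 UMIs in IL6 KO. Called higher in TKO than in IL6 KO were S100a4 with 78 UMIs in TKO and 5 in IL6 KO and Ifitm3 with 179 in TKO and 32 in IL6 KO, and without cells marked as doublets their log2 ratios were 0.03 and -0.043.

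Within the members Rag1 and Ms4a1 seldom met in a cell, though Rag1 UMIs were part of the choice of cells and Ms4a1 UMIs were not. After thinning to 1000 UMIs, Rag1 without Ms4a1 was seen in 30.5% of TKO cells, 37.2% of IL6 KO and 30.3% of TWT cells, and Ms4a1 without Rag1 in 34.2% of TKO (29.4 to 39.2), 21.6% of IL6 KO (16.8 to 27.0) and 20.2% of TWT cells (14.7 to 26.7). Both were seen in 2.89%, 1.49% and 4.26%, where the product of the 2 shares gives 12.4%, 8.91% and 8.46%. T cells, which should lack both, had Rag1 in 0% and Ms4a1 in at most 0.244%. Without thinning, 154 TKO cells had Rag1 only, 140 had Ms4a1 only, 37 had both and 54 neither, against 150, 70, 9 and 44 cells in IL6 KO and 89, 47, 16 and 38 in TWT. The ranges were set after the values were seen and describe a spread, not types.

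Other genes moved along the same spread in each library. At least 2-fold apart in all 3 libraries were 79 genes on the Rag1 side and 70 on the Ms4a1 side, of 1284 genes (6.15%) and 1179 genes (5.94%) with at least 100 CPM on that side in each library. On the Rag1 side Il7r was at 493 CPM in TKO, 586 in IL6 KO and 483 in TWT, against 49.9, 54.0 and 15.2 CPM on the Ms4a1 side. Xrcc6, Tifa, Smarca4 (a chromatin remodelling ATPase), Ezh2 (a histone methyltransferase), Bcl2l1 and Il2ra went with it. Cd74 stood at 391, 370 and 598 CPM on the Rag1 side, against 7280, 7384 and 5596 CPM on the Ms4a1 side, with H2-DMb2, H2-Eb1, H2-Ab1, H2-DMa, Bank1, Cd180, Btla and Ptpn6. Igkc, the kappa constant region, was at 3592, 3607 and 2975 CPM against 12788, 13398 and 7742. Ifi27l2a was at 430, 157 and 164 CPM on the Rag1 side and 549, 192 and 167 on the Ms4a1 side, so its TKO level was the highest in both. Cells with Ms4a1 only made up the largest share in TKO. The part of that mix in the TKO over TWT ratios of Ms4a1, Cd40, Cd22, Ptpn6, Cd74 and Igkc was not tested.

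**Figure D5:**
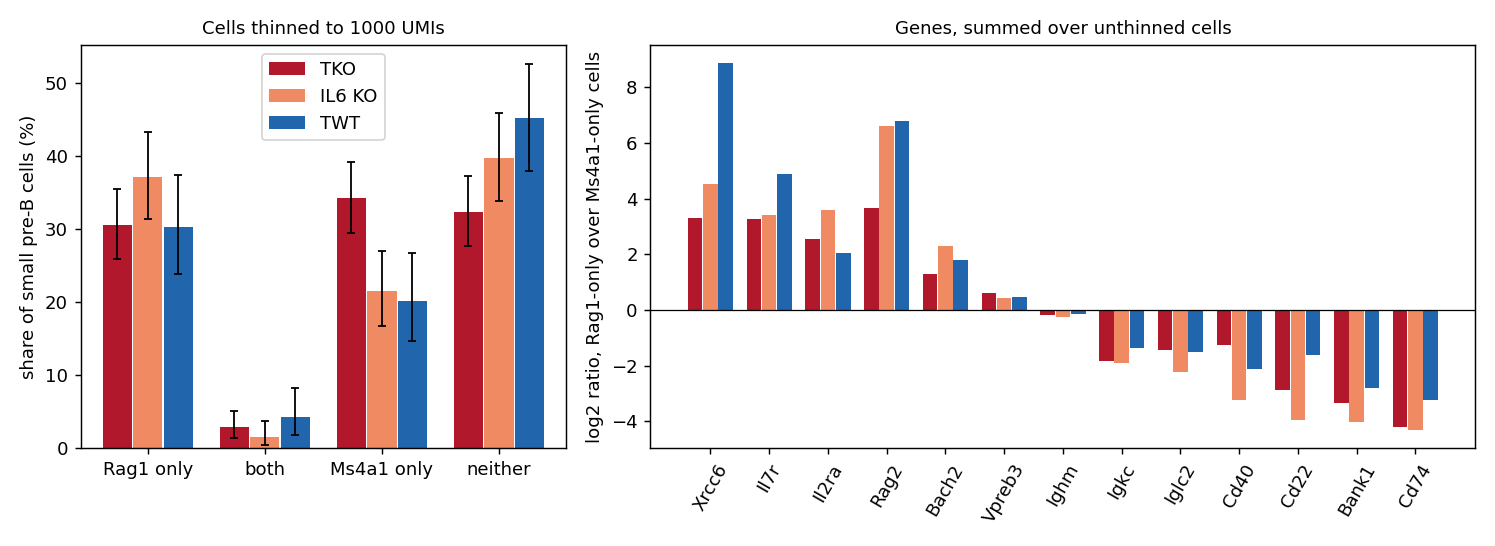
Left, share of small pre-B cells (percent, exact 95% intervals) with a UMI of Rag1 only, both, Ms4a1 only or neither after thinning to 1000 UMIs, and right, log2 ratio of summed CPM in Rag1-only over Ms4a1-only cells without thinning, for TKO, IL6 KO and TWT. Cells with both are 1.49% to 4.26%, and Il7r stands at 3.28 or more and Cd74 at -3.22 or less in each library.

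Light chain transcripts showed the same breadth. With a limit of 5 UMIs after thinning, Igkc alone was found in 37.4% of TKO cells (32.5 to 42.4), 33.5% of IL6 KO (27.8 to 39.4) and 30.9% of TWT cells (24.3 to 38.0). Lambda chains alone were found in 21.1% (17.1 to 25.5), 13.4% (9.55 to 18.0) and 19.1% (13.8 to 25.5), both in 12.4%, 14.5% and 10.1%, and neither in 29.2%, 38.7% and 39.9%. Immunoglobulin transcripts also occur as free RNA. After the same thinning at least 1 Igkc UMI was present in 81.8% of TKO, 90.0% of IL6 KO and 83.0% of TWT members. T cells so thinned had 7.17%, 25.7% and 29.0%. Without thinning the shares were 87.3%, 96.3% and 90.0% of members and 26.6%, 72.0% and 71.5% of T cells. Before thinning the median depth was 4562, 4162.5 and 4079.5 UMIs in T cells, against 2421, 2711 and 2420.5 in members. Summed Igkc was at 7240 CPM in TKO, 6791 in IL6 KO and 4680 in TWT (TKO over TWT 1.55, 1.48 to 1.62), and Iglc3 at 1258, 645 and 755 CPM (1.67, 1.48 to 1.88), none of the 4 light chain genes being called.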

How the data were processed

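The authors sequenced 1 library of 10x Genomics 3′ chemistry per genotype on DNBseq and, per the matrix headers and the submitters' processing notes, used Cell Ranger (3.0.2) and mm10 (they also name Seurat 4). The deposited values are whole-number UMI counts per gene and called barcode, with no normalization. Raw reads and empty droplets were not used, so free RNA was read from T cells.

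Members and gene lists were chosen with earlier results of these data known. The rule was applied to the counts, member UMIs were summed per library, and CPM, exact Clopper-Pearson, Poisson and conditional ratio intervals at 95% were computed in Python 3.11.15 (numpy 2.4.6, scipy 1.17.1, pandas 2.3.3, plots in matplotlib 3.10.9). Intervals and the limit of 3 counts for a 0 cover counting error only. The calling rule was run on simulated counts that had no variation among cells and changes well above 2-fold. That run says nothing of calls near 2-fold or of calls that rest on 1 cell. Immunoglobulin-rich cells, defined after the values were seen, were left out of the members compared and of both neighbouring stages, which differs from the plan for the stages. Mature B cells also had at most 1 UMI of Vpreb3 and Rag1, at most 2 of Vpreb1, Igll1 and Dntt, and 0 of Mki67 and Top2a. T cells had at least 2 UMIs of Cd3d, Cd3e and Cd3g and 0 of Cd79a and Cd79b. Thinning used 1000 UMIs (seed 1) and left out 5 TKO, 4 IL6 KO and 2 TWT cells.

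Named were members of the role lists with at least 30 UMIs over the 3 libraries, the 8 highest and 8 lowest calls of each comparison (immunoglobulin segments and Gm genes left out), the 10 genes of largest smallest ratio between stages, the 2 to 4 most different genes of a pathway list, and Diaph1, Il6 and Xist. Bcl2, Vpreb2 and genes set beside a call were named after their values were seen. Scrublet (scanpy 1.11.5) marked 174 TKO, 147 IL6 KO and 169 TWT filtered cells but only 1 in DKO, where it has not worked. It marked 10, 4 and 2 members, which were kept. Some genes that the rule names are not reported here. miR-146a is not measured by these libraries. Promoters and the miRNA are from RefSeq.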

Additional observations from a re-analysis of the deposited data

Results flagged for a closer look

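Barcodes outside the cell filter that met the marker rule were flagged above 3, a limit that takes no account of the number of members. There were 11 such barcodes in TKO, beside 399 members, and 4 in IL6 KO, beside 304. In TKO 6 of them had under 500 detected genes and 5 had over 15% mitochondrial UMIs, and in IL6 KO these numbers were 1 and 3. DKO had 0 and TWT 2 such barcodes.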

How the results depend on the processing

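No paired analysis was possible because each genotype has 1 library. The ratios of shares kept their direction under every cell filter, marker limit and doublet setting tried. Those that moved were TKO over IL6 KO as a share of B lineage cells (1.11), DKO over TWT as such a share (0.142, and 0.139 without immunoglobulin-rich cells, added after seeing the data) and DKO over TWT with at least 1 Rag1 UMI, set after seeing the data (0).

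Counts of called genes moved with the settings. Without immunoglobulin-rich members (48, TKO over TWT; 67, IL6 KO over TWT; 45, TKO over IL6 KO), a 100 CPM minimum gave 14, 18 and 17, no CPM minimum gave 590, 656 and 621, and a pseudocount of 10 CPM gave 26 in TKO over TWT and 33 in IL6 KO over TWT. Thinning to 1000 UMIs gave 126 in TKO over TWT and 110 in TKO over IL6 KO. With them kept, TKO over TWT (129) gave 75 with at least 3 UMIs of Vpreb3 and Rag1, 55 for mean CPM per cell, 61 at 100 CPM, 923 with no minimum, 76 at pseudocount 10 and 48 without these cells. IL6 KO over TWT (43) gave 73 thinned, 81 without genes above 1% of UMIs, 66 for mean CPM, 20 at 100 CPM, 631 with no minimum and 67 without these cells. TKO over IL6 KO (77) gave 121 thinned, 38 for mean CPM, 33 at 100 CPM, 775 with no minimum, 49 at pseudocount 10 and 45 without these cells.

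Of list medians, thinning moved V(D)J genes in TKO over TWT to 0.028 from -0.16 and the Toll-like receptor list to 0.36 from -0.14. Keeping immunoglobulin-rich cells moved V(D)J genes to 0.057, light chains to -0.037 from 0.43 (TKO over TWT) and -0.84 from 0.24 (TKO over IL6 KO), residual cycle genes to 0.12 from -0.24, and oxidative phosphorylation to -0.14 from 0.01 (TKO over TWT) and -0.061 from 0.08 (TKO over IL6 KO), after the shift that keeping these cells gave the median of all genes was taken off. Without Scrublet doublets Ifitm1 (-0.20) and Ccl6 (-0.82) in TKO over TWT and Ifitm3 (-0.043) in TKO over IL6 KO turned round, and thinning turned Ctsg in IL6 KO over TWT (3.99). Of 53 named calls, 36 held for mean CPM per cell, 14 after thinning, 49 at pseudocount 10, 44 without doublets and 53 without genes above 1%. The cause was not tested. Few UMIs per gene limit most single genes.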
